A study of Mus musculus with 19 samples.

Results

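The postsynaptic density is the protein layer beneath the membrane of an excitatory synapse, facing the site of glutamate release. The genes described here were 32 named genes that encode its scaffolds and the signalling enzymes and adhesion molecules held there, chosen by name and found in the deposited table by gene name, 32 of 35842 genes. All 32 passed the filter on low counts, which left 18529 genes to test, and the lowest count of any of them in any mouse was 535. They fall into 7 groups by role: MAGUK scaffolds, SAPAP linkers with Begain, Shank scaffolds, Homer adaptors, calcium and calmodulin signalling, postsynaptic adhesion, and regulators of small GTPases and actin.

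The data were gene counts of hippocampal RNA from 19 female mice aged 6 months, each mouse being 1 library. There were 4 APP/PS1 A2A, 5 A2A, 5 APP/PS1 and 5 WT mice. APP/PS1 mice are heterozygous for the APPswe/PS1dE9 transgene, which drives amyloid deposition, on a C57Bl6/J background, and were crossed with the A2A line, whose background is not given in the sources used here. A2A mice carry the mouse adenosine A2A receptor behind a Tet-responsive element (TRE-A2A), and APP/PS1 A2A mice carry both. At 3 months every mouse, WT and APP/PS1 included, received AAV2/5-CBA-tTA-WPRE-bGH on both sides in CA1 of the dorsal hippocampus, so the transactivator tTA was present in all 4 groups and the receptor transgene could respond to it only in the A2A groups. The vector favours neurons and was placed in dorsal CA1, whereas the RNA came from the hippocampus of 1 hemisphere, so uninfected cells were part of each sample. In such bulk RNA, fewer cells of a type and less RNA per cell cannot be told apart.

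Total counts ranged between 36502915 and 53717373 in APP/PS1 A2A, 21305902 and 42122245 in A2A, 30251406 and 50062369 in APP/PS1, and 29281243 and 39310726 in WT mice. App, whose human form is part of the APP/PS1 transgene, lay at 3282 to 4499 counts per 1000000 scaled counts (CPM) in APP/PS1 A2A and 3430.1 to 4473 CPM in APP/PS1 mice, against 1381 to 1746 CPM in A2A and 1467 to 1919.8 CPM in WT mice. Adora2a lay at 1.27 to 10.3 CPM in APP/PS1 A2A, 0.865 to 9.35 CPM in A2A, 1.15 to 1.83 CPM in APP/PS1 and 1.09 to 1.54 CPM in WT mice. The transgene has an altered coding sequence that sets it apart from the endogenous receptor, so Adora2a counts do not check the A2A label. Summed markers of neurons lay between 4972 and 7710.1 CPM in all mice. Summed markers of choroid plexus, a tissue beside the hippocampus, ranged between 58.9 and 10168 CPM with all 4 groups overlapping. No batch is named in the labels.

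Excitatory synapses hold their glutamate receptors through layers of scaffold proteins. MAGUK proteins such as PSD-95 bind the receptors and adhesion molecules, SAPAP proteins tie the MAGUKs to Shank proteins, and Shank and Homer form the deeper mesh that reaches metabotropic receptors and the actin cytoskeleton. Calcium entering through NMDA receptors acts on calmodulin, which drives the kinase CaMKII and the phosphatase calcineurin, the enzymes behind lasting strengthening and weakening of the synapse. In the hippocampus this machinery is best known for its part in learning and memory.

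None of the 32 genes differed between groups by the criteria of the study, an adjusted p under 0.05 with an absolute log2 fold change over 0.32, in edgeR's quasi-likelihood test over all 18529 genes. The count was 0 of 32 in APP/PS1 A2A versus APP/PS1, where 0% of all genes were called, 0 of 32 in APP/PS1 A2A versus A2A (0.0648% of all genes), 0 of 32 in A2A versus WT (0% of all genes) and 0 of 32 in APP/PS1 versus WT (0.054% of all genes). It was also 0 of 32 for the difference of the APP/PS1 effect with and without A2A (0% of all genes) and 0 of 32 in the test of any difference among the 4 groups, called there on the adjusted p alone (0.0864% of all genes). DESeq2 and limma-voom also called 0 of 32 in each of these tests. The counts over all genes behind these shares moved with single mice, while that of the 32 genes stayed at 0: 93 genes instead of 12 were called in APP/PS1 A2A versus A2A without A2A replicate 3, 18 instead of 10 in APP/PS1 versus WT without APP/PS1 replicate 4, and 26 or 10 instead of 16 in the test of any difference without APP/PS1 replicate 4 or WT replicate 1.

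Without adjustment, edgeR gave p under 0.05 for 0 of 32 genes in APP/PS1 A2A versus APP/PS1 (2.87% of all genes), for 2 between APP/PS1 A2A and A2A mice (7.7%), for 2 between A2A and WT mice (3.44%) and for 0 in APP/PS1 versus WT (2.26%). The difference of the APP/PS1 effects gave 2 (3.8%) and the test of any difference 0 (4.23%). These shares are close to those of all genes. The groups did not overlap for 0 of 32 genes in APP/PS1 A2A versus APP/PS1 (0.712% of all genes), for 1 in APP/PS1 A2A versus A2A (2.82%), for 2 in A2A versus WT (1.12%) and for 0 in APP/PS1 versus WT (0.421%).

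The intervals limit how large a change could have gone unseen. In APP/PS1 A2A versus APP/PS1 the 95% interval of the fold change lay within 1.5-fold in either direction for 30 of 32 genes. The same held for 28 of 32 between APP/PS1 A2A and A2A mice, 30 between A2A and WT mice and 31 in APP/PS1 versus WT. It held for 24 for the difference of the APP/PS1 effects. The 1.5-fold bound is wider than the fold threshold of the study. In APP/PS1 A2A versus APP/PS1 some log2 intervals reached past that threshold. Examples were Shank3 (-0.44 to 0.14) and Camk2a (-0.22 to 0.43), whereas Dlg4 (-0.09 to 0.31) stayed inside it. Changes large enough to be called were thus not excluded for every gene. Of all 18529 genes, 11935 had intervals within 1.5-fold in that comparison. The median log2 fold change of the 32 genes was 0.02 in APP/PS1 A2A versus APP/PS1, beside a median of all genes of -0.01. It was 0.09 for APP/PS1 A2A versus A2A mice, -0.02 for A2A versus WT mice and 0.03 in APP/PS1 versus WT, with medians of all genes of 0.00 in each. Between mice of 1 group the median level of the 32 genes varied with an SD of 0.11 on the log2 scale. Each of these median log2 fold changes was smaller than that SD. The SD is that of single mice, however, and does not measure the uncertainty of a difference between groups. The medians were not tested. Leaving out single mice moved the median between -0.02 (without APP/PS1 replicate 3) and 0.06 (without APP/PS1 replicate 1) in APP/PS1 A2A versus APP/PS1, between -0.06 (without A2A replicate 5) and 0.03 (without WT replicate 5) for A2A versus WT mice, and between -0.04 (without APP/PS1 replicate 5) and 0.07 (without WT replicate 5) in APP/PS1 versus WT, so these 3 medians had no stable sign. For APP/PS1 A2A versus A2A mice it lay between 0.04 (without APP/PS1 A2A replicate 1) and 0.11 (without APP/PS1 A2A replicate 3).

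**Figure D1:**
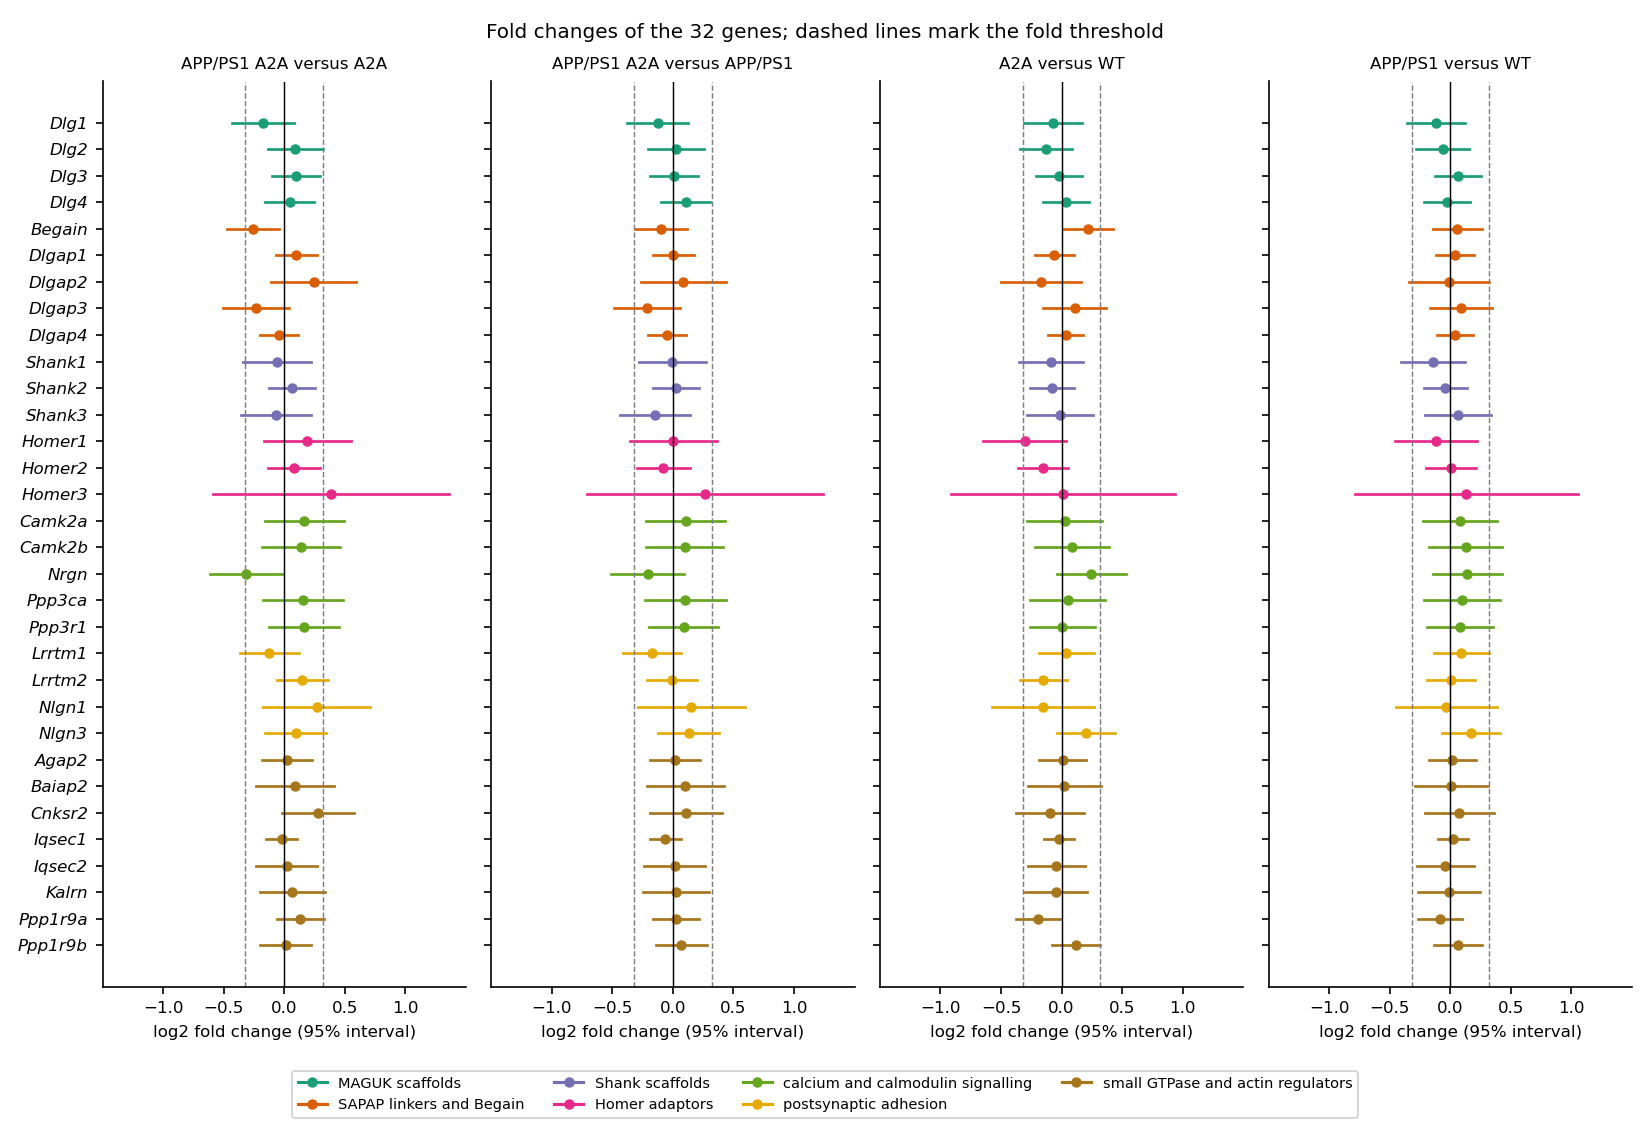
Log2 fold change of each of the 32 genes (points, coloured by role) with its 95% interval (lines) from edgeR, in 4 comparisons, with the fold threshold of 0.32 dashed. None of the genes was called, and Homer3 had the widest interval in each panel, from -0.71 to 1.24 in APP/PS1 A2A versus APP/PS1.

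Levels were compared between genes per length, as counts per kilobase of exon scaled to 1000000 per mouse. The length took in the exons of every annotated transcript of a gene. It was 13251 bases for Dlg4 with 22 transcripts and 1453 bases for Nrgn with 2. Exons little used in these samples lower the level per length, so the order below depends partly on the annotation. The calcium and calmodulin genes led the order. Camk2a, the alpha subunit of CaMKII, stood at 2389 ± 362 (SD, n = 19 mice), Nrgn, the small protein neurogranin that binds calmodulin at low calcium, at 1805 ± 292, and Ppp3r1, the regulatory subunit of calcineurin, at 1406 ± 185. Below them came Ppp3ca, the calcineurin catalytic subunit, at 775 ± 126, Ppp1r9b, spinophilin, which holds protein phosphatase 1 at spine actin, at 724 ± 66.2, Agap2, a GTPase-activating protein for Arf, at 691 ± 61.0, and Camk2b at 636 ± 102. The means of these neighbours differed by less than the larger of their SDs, and within mice Ppp3ca was above Ppp1r9b in 15 of 19, Ppp1r9b above Agap2 in 15 and Agap2 above Camk2b in 17. The next gene, Dlg4 (PSD-95), stood at 227 ± 20.7. The lowest were the neuroligins, with Nlgn1 at 31.4 ± 6.92 and Nlgn3 at 29.7 ± 4.25. Of the 31 steps between neighbours in this order, 7 were larger than the SD of both genes between mice. The SDs do not use that both genes were measured in the same mouse. Within mice some of the other steps kept their order in most mice, such as Dlgap2 over Nlgn1 in 18 of 19, and others did not, such as Cnksr2 over Shank1 in 10 of 19.

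**Figure D2:**
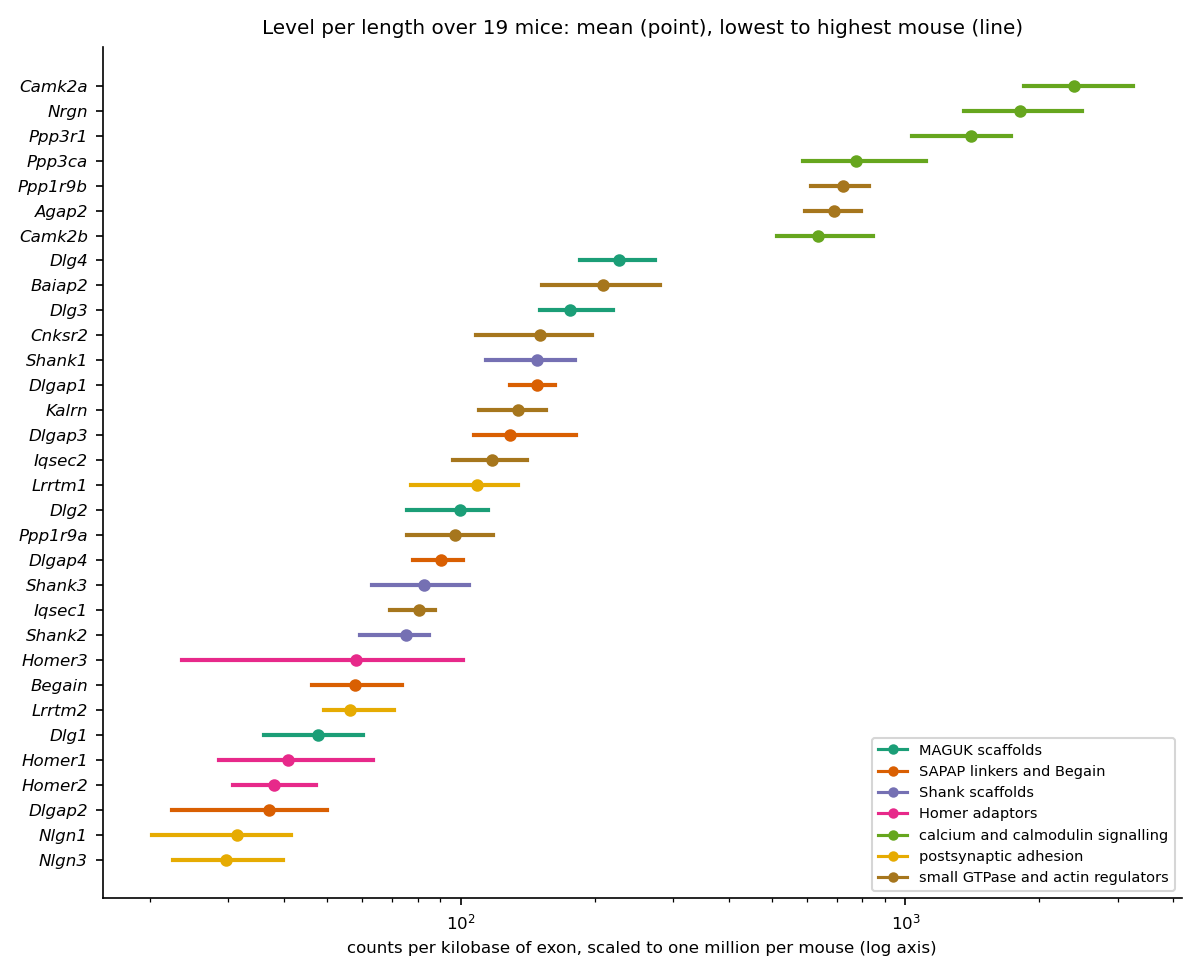
Level of the 32 genes per kilobase of exon, scaled to 1000000 per mouse, on a log axis, with points at the mean of 19 mice and lines running to the lowest and highest mouse. Camk2a, Nrgn and Ppp3r1 lie at the top, Nlgn1 and Nlgn3 at the bottom, and Homer3 has the longest line.

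Together the 32 genes took 1.49% to 1.97% of the total counts of a mouse, before scaling. For 28 of the 32 genes the highest mouse was under 2-fold above the lowest. The 4 exceptions were Nlgn1 at 2.02-fold, Dlgap2 at 2.12-fold, Homer1 at 2.22-fold and Homer3 at 4.63-fold. At the other end Iqsec1, an activator of the small GTPase Arf6, ranged only between 189 and 238 CPM. Some mice held many of the extremes. APP/PS1 replicate 5 had the highest level of 9 genes, APP/PS1 replicate 4 had the lowest of 7, and APP/PS1 A2A replicate 1 had the highest of 6 and the lowest of 6 others. Replicate numbers only name the mice. The same mice also held extremes of summed markers, whereas A2A replicate 4, with the lowest level of 5 genes, held none. APP/PS1 replicate 5 had the highest sums of excitatory neuron markers (1870.4 CPM) and red blood cell markers (272.0 CPM) of the 19 mice. APP/PS1 replicate 4 had the highest sums for choroid plexus (10168 CPM) and thalamic neurons (133 CPM) and the lowest for CA1 (321 CPM). APP/PS1 A2A replicate 1 had the lowest sum for neurons (4972 CPM) and the highest for astrocytes (2341 CPM), microglia (474 CPM) and dentate granule cells (468 CPM). The part of these differences in the levels of the 32 genes was not tested.

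**Figure D3:**
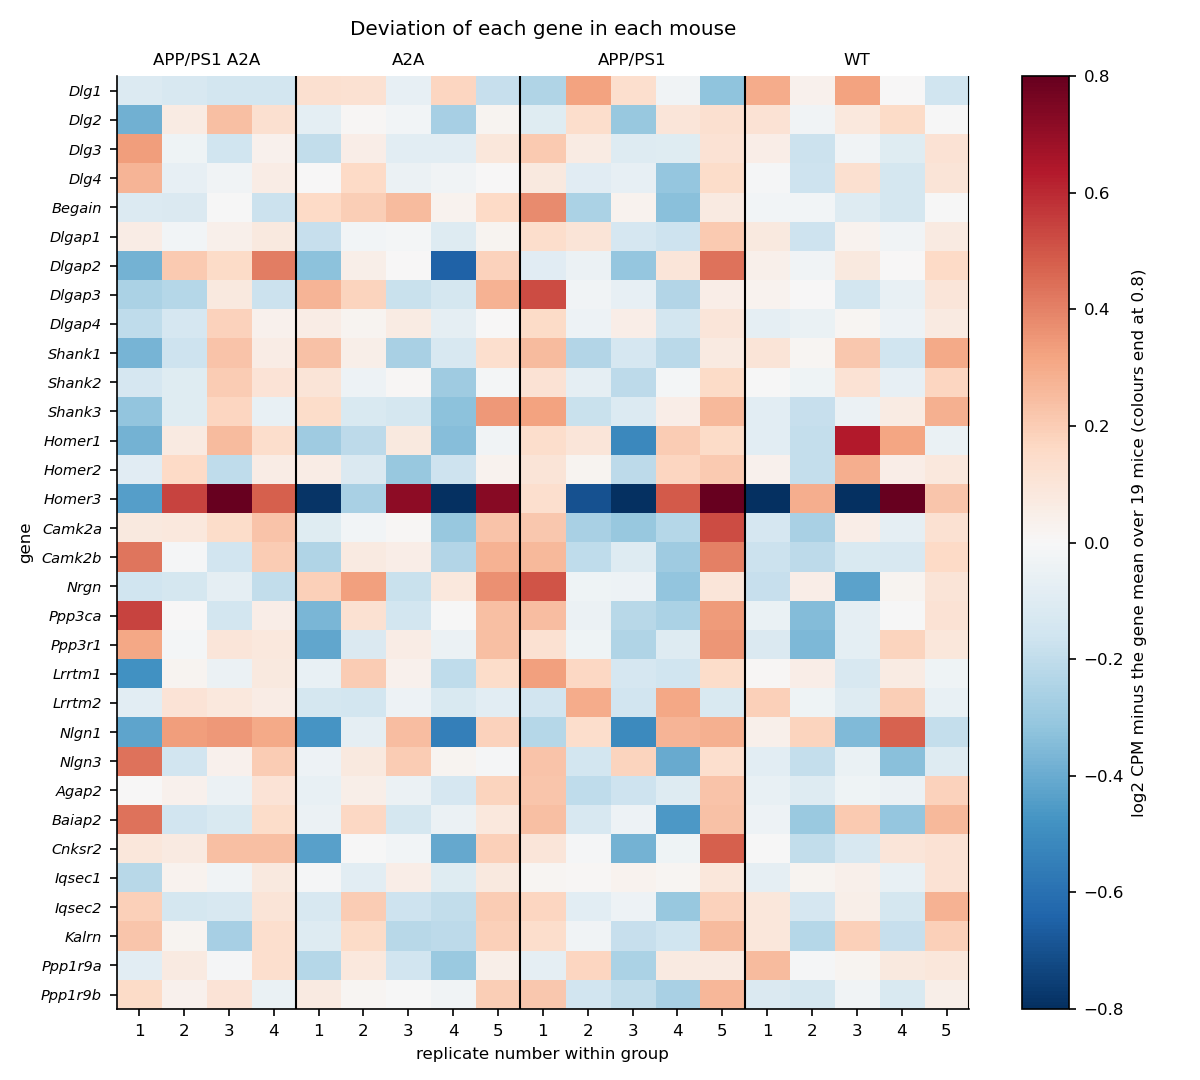
Deviation of the log2 CPM of each gene (rows, by role) from its mean over 19 mice, for each mouse (columns, by group and replicate number), on a colour scale that ends at 0.8. APP/PS1 replicate 5 is above the mean in 30 of 32 rows, and the Homer3 row varies most, with its highest mouse 4.63-fold above its lowest.

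Among the MAGUK scaffolds Dlg4 had 851, 674, 692 and 737 CPM in APP/PS1 A2A mice, 707, 789, 683, 693 and 707 CPM in A2A mice, 744, 662, 675, 570.5 and 781 CPM in APP/PS1 mice and 700.0, 628, 771, 639.6 and 759 CPM in WT mice. The 4 groups overlapped. Dlg4 averaged 739 ± 79.4 CPM in APP/PS1 A2A and 687 ± 81.3 CPM in APP/PS1 mice (SD, n = 4 and 5), a log2 fold change of 0.11 with a 95% interval from -0.09 to 0.31. It was 0.03 without APP/PS1 A2A replicate 1 and 0.16 without APP/PS1 replicate 5. Dlg1 (SAP97), a MAGUK that also occurs in other cells, had 111, 109, 108 and 108 CPM in APP/PS1 A2A mice, 130.5, 130.0, 114, 135 and 105 CPM in A2A mice, 101, 149, 131, 117 and 95.6 CPM in APP/PS1 mice and 147, 122, 149, 119.7 and 107 CPM in WT mice. The APP/PS1 A2A mice had an SD of 1.39 CPM and lay inside the range of the APP/PS1 mice, and edgeR gave an adjusted p of 0.9997 for any difference among the groups. Dlg2 (PSD-93) lay between 290.1 and 447 CPM and Dlg3 (SAP102) between 209.7 and 303 CPM.

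Begain, a protein that binds the guanylate kinase domain of PSD-95, had the smallest p of the 32 genes both between APP/PS1 A2A and A2A mice and between A2A and WT mice. It had 55.4, 55.0, 59.6 and 53.0 CPM in APP/PS1 A2A mice, 66.6, 68.3, 71.2, 61.0 and 66.5 CPM in A2A mice, 77.5, 50.1, 60.8, 47.4 and 62.8 CPM in APP/PS1 mice and 58.8, 58.7, 55.7, 54.1 and 59.6 CPM in WT mice. All 5 A2A mice were above all 4 APP/PS1 A2A mice and above all 5 WT mice, whereas the APP/PS1 mice spanned every other group. The log2 fold change was -0.26 ± 0.10 (SE) in APP/PS1 A2A versus A2A, with a 95% interval from -0.47 to -0.04 and an adjusted p of 0.491 by edgeR. It was 0.22 ± 0.10 in A2A versus WT, with an interval from 0.02 to 0.42 and an adjusted p of 0.964 by edgeR. The difference of the APP/PS1 effects was -0.32 ± 0.14 (adjusted p = 0.9998 by edgeR). When offsets took out how a library varied with GC content and exon length, the log2 fold change of Begain was -0.0029 in APP/PS1 A2A versus A2A (adjusted p = 0.9986 by edgeR) and 0.09 in A2A versus WT (adjusted p = 0.9999 by edgeR).

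Of the SAPAP linkers Dlgap3, known in mice for its part in corticostriatal synapses, had the smallest p in APP/PS1 A2A versus APP/PS1. It had 114, 116, 143 and 120.3 CPM in APP/PS1 A2A mice, 164, 154, 120.1, 123 and 164 CPM in A2A mice, 195, 133, 129.7, 115 and 141 CPM in APP/PS1 mice and 138, 136, 122, 130.4 and 145 CPM in WT mice. The groups overlapped, and the highest value was that of APP/PS1 replicate 1. The log2 fold change in APP/PS1 A2A versus APP/PS1 was -0.21, with a 95% interval from -0.49 to 0.06 and an adjusted p of 0.9999 by edgeR, and it was -0.06 without APP/PS1 replicate 1 and -0.0033 with the offsets for GC content and length. The other SAPAP genes lay at 548 to 718 CPM for Dlgap1, 33.7 to 71.4 CPM for Dlgap2 and 155 to 203 CPM for Dlgap4.

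Shank3, the scaffold whose protein was stained in the study, had 143, 166, 200.1 and 170.1 CPM in APP/PS1 A2A mice, 196, 163, 161, 142 and 226 CPM in A2A mice, 221, 157, 164, 184 and 213 CPM in APP/PS1 mice and 167, 156, 172, 186 and 216 CPM in WT mice. The 4 groups overlapped over nearly their whole range. In APP/PS1 A2A versus APP/PS1 its log2 fold change was -0.15 ± 0.14 (SE), with a 95% interval from -0.44 to 0.14. It was -0.23 without APP/PS1 A2A replicate 3, -0.07 without APP/PS1 A2A replicate 1 and -0.03 with offsets for GC content and length. Shank1 lay between 282 and 449 CPM and Shank2 between 156 and 218 CPM, and their log2 fold changes in the same comparison were -0.0040 and 0.03.

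Homer adaptors link Shank to metabotropic glutamate receptors and to calcium channels of the endoplasmic reticulum. Homer1, also stained as a protein in the study, had 87.0, 119, 135 and 125 CPM in APP/PS1 A2A mice, 92.8, 97.8, 119, 89.2 and 111 CPM in A2A mice, 125, 121, 79.0, 130.4 and 126 CPM in APP/PS1 mice and 107, 98.9, 175, 141 and 109 CPM in WT mice. Its log2 fold change in APP/PS1 A2A versus APP/PS1 was 0.0028, with a 95% interval from -0.36 to 0.36, and its sign changed with the mouse left out, from -0.11 without APP/PS1 replicate 3 to 0.12 without APP/PS1 A2A replicate 1. Gene counts cannot tell the long form of Homer1 from its short form, which neuronal activity induces. Homer2 lay between 91.4 and 137 CPM. Homer3 had 30.9, 61.2, 77.2 and 58.6 CPM in APP/PS1 A2A mice, 24.4, 35.1, 69.0, 19.8 and 69.5 CPM in A2A mice, 46.0, 25.9, 19.95, 58.9 and 85.9 CPM in APP/PS1 mice and 18.6, 51.4, 24.2, 73.2 and 49.0 CPM in WT mice. The highest mouse exceeded the lowest 2.499-fold in APP/PS1 A2A, 3.50-fold in A2A, 4.31-fold in APP/PS1 and 3.94-fold in WT mice, and the groups overlapped.

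Of the calcium and calmodulin genes Camk2a, the most abundant of the 32 with a mean of 4204 CPM, had 4395, 4399, 4601 and 4870.4 CPM in APP/PS1 A2A mice, 3879, 4091, 4176, 3367 and 4865 CPM in A2A mice, 4834, 3477, 3364, 3547 and 5977 CPM in APP/PS1 mice and 3779, 3468, 4304, 3952 and 4531 CPM in WT mice. The APP/PS1 A2A mice lay close together and inside the range of the APP/PS1 mice, with a log2 fold change of 0.11 and a 95% interval from -0.22 to 0.43. It was 0.03 without APP/PS1 replicate 3 and 0.26 without APP/PS1 replicate 5. Nrgn had 548, 553, 581 and 534 CPM in APP/PS1 A2A mice, 698, 767, 539, 647 and 788 CPM in A2A mice, 865, 595, 594, 491 and 653 CPM in APP/PS1 mice and 537, 635, 453, 619 and 656 CPM in WT mice. In all but A2A replicate 3 the A2A mice were above the APP/PS1 A2A mice. The log2 fold change of Nrgn was -0.31 ± 0.14 (SE) in APP/PS1 A2A versus A2A (adjusted p = 0.6104 by edgeR), and the difference of the APP/PS1 effects was -0.45 ± 0.20 (adjusted p = 0.9998 by edgeR), the smallest p of the 32 genes there. With the offsets for GC content and length that difference was -0.24 (adjusted p = 0.9998 by edgeR). Camk2b, Ppp3ca and Ppp3r1 lay between 1108 and 1817 CPM, 1396 and 2617 CPM, and 794 and 1353 CPM.

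Neuroligins and LRRTM proteins are postsynaptic partners of neurexins. Nlgn3 had the smallest p of the 32 genes in APP/PS1 versus WT. It had 86.8, 57.9, 66.0 and 74.1 CPM in APP/PS1 A2A mice, 62.4, 67.9, 74.1, 65.2 and 63.8 CPM in A2A mice, 75.3, 58.2, 72.7, 48.5 and 70.6 CPM in APP/PS1 mice and 60.7, 56.4, 61.9, 50.9 and 59.7 CPM in WT mice. Each A2A mouse was above each WT mouse, while the APP/PS1 mice reached both above and below the WT mice. The log2 fold change was 0.17 ± 0.11 (SE) in APP/PS1 versus WT (adjusted p = 0.9998 by edgeR) and 0.20 ± 0.11 in A2A versus WT (adjusted p = 0.964 by edgeR). The APP/PS1 versus WT value was 0.10 without APP/PS1 replicate 1 and 0.26 without APP/PS1 replicate 4. Nlgn1, the neuroligin of excitatory synapses, lay between 66.2 and 134 CPM, Lrrtm1 between 55.1 and 97.1 CPM and Lrrtm2 between 71.4 and 98.6 CPM.

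Among regulators of small GTPases and actin Ppp1r9a, neurabin, which brings protein phosphatase 1 to actin, had 311, 346, 328 and 362 CPM in APP/PS1 A2A mice, 281, 349, 296, 269 and 341 CPM in A2A mice, 314, 371, 277, 346 and 347 CPM in APP/PS1 mice and 393, 327, 335, 348 and 351 CPM in WT mice. Its log2 fold change was -0.19 ± 0.09 (SE) in A2A versus WT, with a 95% interval from -0.37 to -0.01 and an adjusted p of 0.964 by edgeR, and the groups overlapped. Cnksr2, a scaffold of Ras signalling, had 346, 341, 383 and 383 CPM in APP/PS1 A2A mice, 240.2, 324, 320.0, 245 and 369.5 CPM in A2A mice, 347, 322, 249, 316 and 451 CPM in APP/PS1 mice and 323, 282, 297, 347 and 352 CPM in WT mice. Its log2 fold change was 0.28 ± 0.14 in APP/PS1 A2A versus A2A, with overlapping groups and an adjusted p of 0.688 by edgeR. Baiap2 (IRSp53), which bends the membrane and binds actin regulators, lay between 177 and 329 CPM, Kalrn, an activator of Rac, between 629 and 902 CPM, Iqsec2, like Iqsec1 an activator of Arf6, between 155 and 232 CPM, Agap2 between 838 and 1128 CPM and Ppp1r9b between 722 and 1039 CPM.

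**Figure D4:**
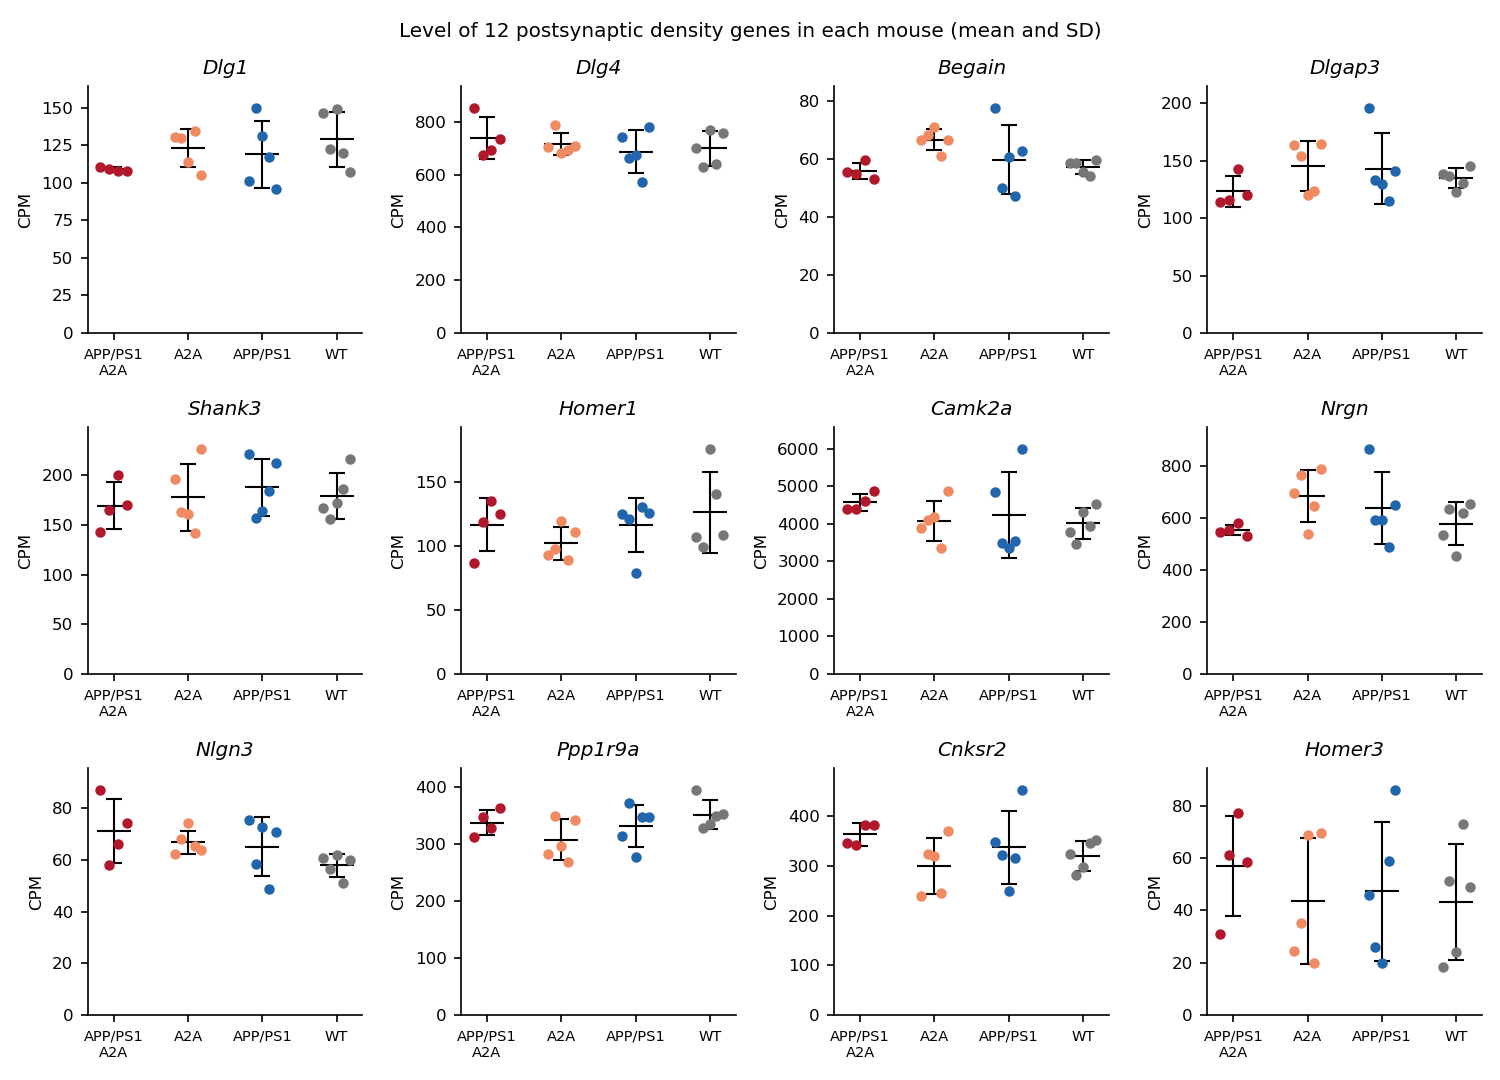
CPM in each mouse (points, coloured by group) with the group mean and SD (bars) for 12 of the genes, on axes that start at 0. Begain shows the 5 A2A mice, at 61.0 to 71.2 CPM, above the APP/PS1 A2A and WT mice, and Homer3 shows a wide spread in every group.

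The fold changes were also set against base composition. Across the 32 genes the log2 fold change in APP/PS1 A2A versus A2A had a Pearson's r of -0.48 with GC content and of 0.31 with exon length, beside -0.16 and 0.15 across 18518 tested genes. In A2A versus WT these values were 0.58 and -0.55 for the 32 genes, beside 0.20 and -0.14. APP/PS1 versus WT gave 0.30 and -0.54, beside 0.08 and -0.01. For APP/PS1 A2A versus APP/PS1 they were -0.26 and 0.22, beside -0.08 and 0.05. The difference of the APP/PS1 effects gave -0.56 and 0.52, beside -0.21 and 0.14. Exon lengths were taken on the log2 scale. These are correlations across genes, which are not independent replicates and share the same libraries. With the offsets for GC content and length the number of the 32 genes with an unadjusted p under 0.05 was 1 between APP/PS1 A2A and A2A mice, 0 between A2A and WT mice and 0 for the difference of the APP/PS1 effects.

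Because the subfields of the hippocampus differ in their synaptic genes, the 32 genes were also set against summed markers of the subfields, in a model with the 4 group means that was chosen after the data had been seen. Among the mice, summed markers ranged between 142 and 468 CPM for dentate granule cells, 321 and 738 CPM for CA1 pyramidal neurons and 114 and 302 CPM for CA2 and CA3 pyramidal neurons, with all 4 groups overlapping. The 3 sums were not independent across mice. WT replicate 4 had 160, 464 and 260 CPM in that order, and WT replicate 3 had 306, 643 and 114 CPM. A2A replicate 5, at 354, 439 and 274 CPM, was high on dentate but low on CA1 markers. Slopes of 1 gene on different lists may therefore reflect a shared relation, which was not tested. At an adjusted p under 0.05, 5 of 32 genes (15.6%) had a slope on the dentate markers, beside 9.59% of all genes. The count was 4 (12.5%) on the CA1 markers, beside 10.8%, and 5 (15.6%) on the CA2 and CA3 markers, beside 13.4%. The shares were thus near those of all genes, and 11 of the 32 genes had a slope on at least 1 of the 3 lists.

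Homer3 had the steepest of these relations. Its log2 level changed by 1.61 ± 0.10 (SE) for each doubling of the CA2 and CA3 markers, with an adjusted p of 5.29e-08 by edgeR, and its p ranked 1 among all 18529 genes. Leaving out each mouse in turn gave slopes from 1.56 to 1.68. Over 19 mice, with group means removed, Pearson's r was 0.97 (permutation p = 1e-05, the smallest that 100000 permutations can give, adjusted 3e-05 over 3 relations) and Spearman's rho was 0.91 (permutation p = 3e-05). Without the 2 mice farthest from the median of the marker sum, taken on the log2 scale with group means removed, r was 0.97. Of the 5 markers, Bok (r = 0.98), Iyd (r = 0.92), Amigo2 (r = 0.83) and Rgs14 (r = 0.67) varied with Homer3 across mice, while Coch had an r of -0.08. Homer3 was chosen for this description as the gene with the smallest p on that list, and the part of tissue composition in its level was not tested.

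On the same markers Dlg1 had a slope of -0.33 ± 0.06 (SE), Nlgn1 of 0.56 ± 0.11, Cnksr2 of 0.34 ± 0.08 and Dlgap2 of 0.37 ± 0.11, with adjusted p of 7.38e-04, 0.00262, 0.0118 and 0.0273 by edgeR. On the dentate markers Baiap2 (0.38 ± 0.07), Iqsec2 (0.28 ± 0.06), Dlg3 (0.21 ± 0.05), Kalrn (0.30 ± 0.07) and Dlg4 (0.19 ± 0.05) had positive slopes, with adjusted p between 0.00347 and 0.0291 by edgeR. On the CA1 markers Baiap2 (0.61 ± 0.16), Nlgn3 (0.46 ± 0.13) and Dlg4 (0.36 ± 0.10) had positive slopes and Nlgn1 a negative slope of -0.78 ± 0.23, with adjusted p between 0.0208 and 0.0364 by edgeR. The CA1 relation of Baiap2 lost its adjusted p under 0.05 without APP/PS1 A2A replicate 1 (0.0534), APP/PS1 replicate 1 (0.0513) or APP/PS1 replicate 4 (0.110). Over the 19 mice Baiap2 had r = 0.81 and rho = 0.84 with the dentate markers (permutation p = 6e-05 and 1.4e-04, adjusted 9e-05 over 3 relations for r), and r = 0.80 without the 2 farthest mice. With the CA1 markers it had r = 0.71 and rho = 0.66 (permutation p = 0.00312 and 0.00574, adjusted 0.00312 for r), and r = 0.54 without the 2 farthest mice. Of the CA1 markers, Baiap2 had an r of 0.73 with Pou3f1, 0.58 with Mpped1, 0.58 with Wfs1 and only 0.27 with Fibcd1. With single dentate markers its r lay between 0.65 (C1ql2) and 0.89 (Lct). Baiap2 was taken because it had the smallest p of the 32 genes on both lists in these same mice, and the adjustment over 3 relations does not cover that choice, nor that of Homer3, so these r are descriptions. With the 3 marker sums as covariates together, 0 of 32 genes were called in any of the 5 comparisons, and Begain had a log2 fold change of -0.30 in APP/PS1 A2A versus A2A with an adjusted p of 0.159 by edgeR.

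**Figure D5:**
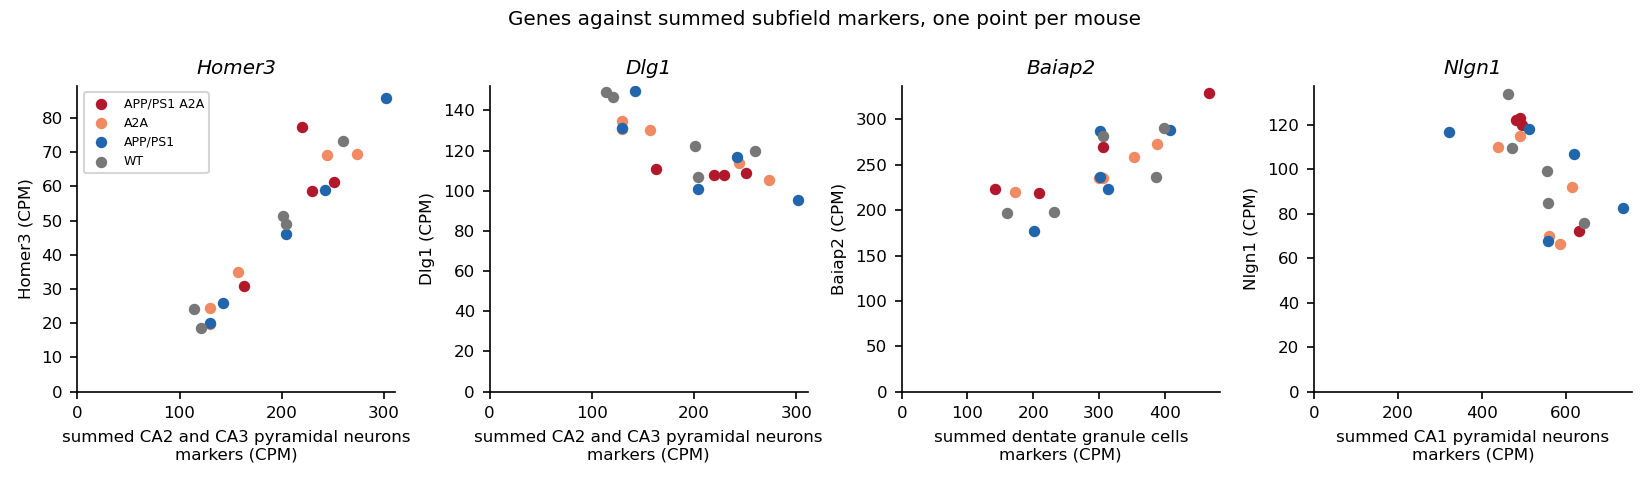
CPM of Homer3, Dlg1, Baiap2 and Nlgn1 against the summed CPM of subfield markers, 1 point per mouse coloured by group, on axes that start at 0. Homer3 lies between 18.6 and 85.9 CPM and rises with the CA2 and CA3 markers, and Dlg1 falls with them over all mice. The 4 groups overlap in each panel. For Dlg1 the APP/PS1 A2A mice stay between 108 and 111 CPM while their CA2 and CA3 markers run from 163 to 251 CPM.

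The promoters of Homer3, the gene with the widest spread, and Nrgn, the gene with the smallest p for the difference of the APP/PS1 effects, are given from RefSeq on GRCm38.p6, from 250 bases before to 50 bases after the start. Homer3 is at chr8:70282749-70283048 on the plus strand and Nrgn at chr9:37552696-37552995 on the minus strand, and each sequence runs 5′ to 3′ along its gene. Capitals mark matches, on either strand, of 5 motifs that do not contain one another. They were the GC box GGGCGG, the E-box CACGTG, a further E-box in the form CAGATG, the cAMP response element TGACGTCA and the TATA box TATAAA.
Homer3: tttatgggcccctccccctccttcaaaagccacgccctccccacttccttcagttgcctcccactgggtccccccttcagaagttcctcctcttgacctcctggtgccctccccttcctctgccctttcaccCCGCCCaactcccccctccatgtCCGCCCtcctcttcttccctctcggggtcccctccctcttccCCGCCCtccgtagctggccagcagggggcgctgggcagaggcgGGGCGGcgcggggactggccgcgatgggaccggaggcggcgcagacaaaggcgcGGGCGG
Nrgn: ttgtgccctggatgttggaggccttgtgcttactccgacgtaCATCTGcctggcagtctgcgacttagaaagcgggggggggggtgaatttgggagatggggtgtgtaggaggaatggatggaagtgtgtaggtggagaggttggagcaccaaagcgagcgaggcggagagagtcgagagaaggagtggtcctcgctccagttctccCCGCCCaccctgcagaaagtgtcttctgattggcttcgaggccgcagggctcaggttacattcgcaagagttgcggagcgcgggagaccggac
Homer3 held 5 matches of GGGCGG or its reverse complement, at a GC content of 69.7%, and Nrgn held 1 match of it and 1 of CAGATG, at 59.3%. RefSeq promoters were found for 25 of the 32 genes, 45 starts in all. GGGCGG was in 57.8% of these 45, beside 35.7% of the 32851 promoters of the table, CACGTG in 13.3% beside 7.15%, CAGATG in 8.89% beside 17.2%, TATAAA in 8.89% beside 13.6% and TGACGTCA in 0% beside 1.79%. Starts of 1 gene share sequence, and a match is a description only.

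Ratios of the CPM of paired genes do not depend on the scaling of a library. They are not corrected for gene length, so they compare groups and do not say which gene of a pair is more abundant. Over the 19 mice the CPM ratio of Camk2a to Camk2b, the alpha and beta subunits of CaMKII, lay between 2.42 and 3.78. In APP/PS1 A2A versus APP/PS1 the mean ratio was 3.11 against 3.03, a log2 difference of 0.04 (two-sided exact permutation p = 0.810, adjusted 0.996 over 16 tests). Dlg4 to Dlg3 gave 2.97 in APP/PS1 A2A and 2.76 in APP/PS1 mice (exact permutation p = 0.175, adjusted 0.931). Ppp3ca to Ppp3r1, the calcineurin subunits, gave 1.69 in APP/PS1 A2A and 1.69 in APP/PS1 mice (exact permutation p = 1). Nlgn1 to Nlgn3 had the largest spread, 0.832 to 2.63, and the largest difference, 1.33 in A2A and 1.71 in WT mice (exact permutation p = 0.167, adjusted 0.931). None of the 16 tests passed after adjustment. The smallest p that 4 against 5 mice allow is 0.0159 and that 5 against 5 allow is 0.00794, so a single ratio could not have passed after adjustment over 16 tests.

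Some of the genes varied together between mice of 1 group. With group means removed over 19 mice, Ppp3ca and Ppp3r1 had r = 0.83 and rho = 0.78 (permutation p = 1e-04 and 6.2e-04, adjusted 6e-04 and 0.00352 over 6 pairs), Camk2a and Camk2b r = 0.79 and rho = 0.73 (permutation p = 4.9e-04 and 0.00176, adjusted 0.00147 and 0.00352), and Shank1 and Shank3 r = 0.75 and rho = 0.74 (permutation p = 0.00117 and 0.00163, adjusted 0.00234 and 0.00352). Without the 2 mice farthest from the median of the first gene, also with group means removed, these r were 0.78, 0.74 and 0.66. The other 3 pairs did not pass. Dlg4 and Shank3 had r = 0.14 and rho = 0.13 (permutation p = 0.588 and 0.623), Dlg4 and Nrgn r = 0.30 and rho = 0.16 (permutation p = 0.290 and 0.533), and Arc, an activity-induced postsynaptic gene, and Homer1 r = 0.37 and rho = 0.18 (permutation p = 0.200 and 0.510), with r = -0.02 for the last pair without the 2 farthest mice. The mice share their library scaling in these values. No r of other gene pairs is set beside them, and the pairs were not rerun with the offsets for GC content and length. The part of base composition and of neuron content in these r was not tested.

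Of 48 other genes of the postsynaptic density, 0 were called in any comparison by edgeR. Unadjusted p under 0.05 was found for 1 of 48 in APP/PS1 A2A versus APP/PS1 (2.87% of all genes), 5 of 48 between APP/PS1 A2A and A2A mice (7.7%), 1 of 48 between A2A and WT mice (3.44%) and 0 of 48 in APP/PS1 versus WT (2.26%), and in that order medians were 0.02, 0.01, 0.00 and 0.01 on the log2 scale. Prr7, a small membrane protein of the postsynaptic density, had the smallest p of them in 3 comparisons. It had 2.01, 2.15, 2.16 and 1.59 CPM in APP/PS1 A2A mice, 10.4, 10.1, 2.78, 6.77 and 8.97 CPM in A2A mice, 13.4, 6.14, 5.67, 4.29 and 2.23 CPM in APP/PS1 mice and 5.68, 6.86, 1.504, 4.17 and 5.25 CPM in WT mice. The APP/PS1 A2A mice were below every A2A and every APP/PS1 mouse but overlapped WT, with log2 fold changes of -1.98 ± 0.48 (SE) against A2A (adjusted p = 0.144 by edgeR) and -1.68 ± 0.47 against APP/PS1 (adjusted p = 0.9999 by edgeR). The other genes named by rank of p were Tanc1 (0.39 in APP/PS1 A2A versus A2A), Limk1 (-0.21 in APP/PS1 A2A versus APP/PS1), Lrrc7 (-0.29 in A2A versus WT and 0.32 for the difference of the APP/PS1 effects), Ppp1ca (0.11 in A2A versus WT), and Srcin1 (-0.08) and Magi1 (-0.14) in APP/PS1 versus WT, all log2 fold changes with adjusted p of 0.513 or more by edgeR. A list of 10 immediate early genes, a readout of recent neuronal activity, shares Arc with the 48 other genes. Of the 10 immediate early genes, 0 were called by edgeR, and 1 had an unadjusted p under 0.05 in each of APP/PS1 A2A versus APP/PS1 (2.87% of all genes) and APP/PS1 A2A versus A2A (7.7%). They summed to 224 to 273 CPM in APP/PS1 A2A, 184 to 667 CPM in A2A, 189.9 to 644 CPM in APP/PS1 and 173 to 997 CPM in WT mice, overlapping ranges. The log2 fold change was negative for all 10 in APP/PS1 A2A versus APP/PS1 (median -0.48) and for 9 of 10 in APP/PS1 A2A versus A2A (median -0.56), and also for 8 of 10 in A2A versus WT (median -0.21) and 7 of 10 in APP/PS1 versus WT (median -0.28). Medians of all genes were -0.01 in the first of these comparisons and 0.00 in the others. Of all 18529 genes, 9684, 9090, 9212 and 8968 were negative in that order. The 10 genes were measured in the same mice and are not independent replicates. Single mice set the top of the summed ranges: A2A replicate 1 (667 CPM, next 382), APP/PS1 replicate 1 (644 CPM, next 371) and WT replicate 3 (997 CPM, next 382). These log2 fold changes were not rerun without single mice. Junb, a transcription factor of this list named after its values were seen, had log2 fold changes of -1.26 ± 0.42 (SE) in APP/PS1 A2A versus APP/PS1, where the groups did not overlap (adjusted p = 0.9999 by edgeR), and of -1.43 ± 0.42 in APP/PS1 A2A versus A2A, where they did (adjusted p = 0.239 by edgeR).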

How the data were processed

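RNA of the hippocampus of 1 hemisphere was sequenced from 19 mice. Per the study's methods, the authors made TruSeq Stranded mRNA libraries, sequenced single reads, trimmed them with cutadapt, removed ribosomal reads, aligned to mm10 with STAR and counted genes of Ensembl with htseq-count in union mode. The deposited values used here are raw counts per gene. The strand setting of the counting is not given in the sources used here, so reads of overlapping and antisense genes may not be told apart. The deposited table also holds the authors' own fold changes and p-values, which were not used.

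Genes with enough counts (filterByExpr, minimum count 10) were kept, scaled by TMM and fitted over all 19 mice with 4 group means by edgeR 4.0.16 in R 4.3.3. P-values were adjusted by Benjamini-Hochberg over the 18529 genes tested. CPM are per 1000000 scaled counts. Groups came from the genotype labels. Totals of 21305902 to 53717373 counts set the precision of single genes, and intervals reflect the spread between mice. Lengths, GC content and promoters came from GRCm38 references. Ratios were tested by exact permutation of mice and pairs of genes by 100000 permutations within groups.

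The 32 genes and all lists were chosen with earlier results of these data known. Values are given mouse by mouse for the gene with the smallest p in each of the 5 contrasts, the 6 with the smallest p for any difference among the groups, Shank3, Homer1, Dlg4 and the gene of highest mean CPM; Homer3 was added after its values were seen. Of the 48 other genes the 2 with the smallest p in each contrast are named. Alternatives were other scalings, filters, DESeq2 1.42.0, limma-voom (limma 3.58.1), offsets, surrogate variables (sva 3.50.0) and leaving out each mouse. The edgeR, limma-voom and DESeq2 tests were also run on simulated counts, drawn independently for each gene. The planted changes were larger than those found for the 32 genes. The simulation therefore does not show whether changes as small as theirs would be found.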

Additional observations from a re-analysis of the deposited data

Results flagged for a closer look

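Within the 128 combinations of a gene and a group, 6 (4.69%) held a mouse whose gap to the nearest other mouse passed Dixon's 95% critical value, and chance flags about 1 in 20 groups. Of these, 4 were high. Dlg4 had 789 CPM in A2A replicate 2, with the other A2A mice at 683 to 707 CPM. Camk2b had 1509 CPM in WT replicate 5 (others 1166 to 1242 CPM), and Agap2 had 1094 CPM in the same mouse (others 899 to 939 CPM). Iqsec1 had 234 CPM in APP/PS1 replicate 5 (others 221 to 225 CPM). The other two were low. Homer1 had 79.0 CPM in APP/PS1 replicate 3 (others 121 to 130.4 CPM), and Nlgn1 had 72.2 CPM in APP/PS1 A2A replicate 1 (others 119.6 to 123 CPM).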

How the results depend on the processing

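The count of called genes among the 32 was 0 in every comparison under every alternative run, while the count over all genes ranged between 6 and 162 in APP/PS1 A2A versus A2A, 4 and 21 in APP/PS1 versus WT, and 5 and 58 for any difference among the groups, each highest with DESeq2; leaving out single mice alone gave 10 to 93, 8 to 18 and 10 to 26. The number of the 32 with an unadjusted p under 0.05 ranged between 0 and 4 both in APP/PS1 A2A versus A2A and among A2A and WT mice (2 each as reported), 0 and 1 in APP/PS1 A2A versus APP/PS1 and in APP/PS1 versus WT (0 each), and 0 and 3 for the difference of the APP/PS1 effects (2) and for any difference (0). Alternatives were run for 9 of the fold changes, of Begain, Nlgn3, Dlgap3, Nrgn, Shank3, Homer1, Dlg4 and Camk2a, and not for the others given. Of these 9, Homer1 in APP/PS1 A2A versus APP/PS1 changed sign, to -0.038 with 1 surrogate variable and -0.0755 with the subfield marker sums as covariates, and between -0.11 and 0.12 when leaving out single mice. Log2 differences of ratios near 0 also changed sign when single mice were left out. Camk2a to Camk2b ranged from -0.055 to 0.16 in APP/PS1 A2A versus A2A and from -0.054 to 0.16 in APP/PS1 A2A versus APP/PS1, and Nlgn1 to Nlgn3 from -0.15 to 0.30 in APP/PS1 A2A versus APP/PS1. Ppp3ca to Ppp3r1 ranged from -0.11 to 0.050 in APP/PS1 A2A versus A2A, -0.078 to 0.080 in APP/PS1 A2A versus APP/PS1, -0.012 to 0.097 in A2A versus WT and -0.031 to 0.046 in APP/PS1 versus WT. The causes were not tested. The marker sums as covariates, and the slopes on them, were added after seeing the data. No paired analysis was possible because replicate numbers follow the order of the samples and pair no mice.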
